A study of Rattus norvegicus with 9 samples.

Results

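The IKK complex and the proteins that act on it were examined through 10 genes: Ikbkg, Ikbkb, Chuk, Map3k14, Card10, Traf2, Traf3, Birc2, Birc3 and Xiap, out of 23953 genes in the count table. The 10 genes were taken by symbol for their known roles, with measured values of these libraries already in view. Map3k14, Card10 and Xiap were chosen by their measured values: they are the 3 with a log2FC beyond 0.58 in either direction and an unadjusted p under 0.05 when pLV-Exo-Wnt5a was set against Exo. Values of that comparison therefore describe the choice and are given with no test. At that limit, Map3k14 lay just inside with a log2FC of 0.64, and Chuk was the nearest gene outside with a log2FC of -0.32, with all 6 libraries of that comparison.

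RNA-seq was run on NSCs, cultured neural stem cells labelled as coming from rat spinal cord, 3 libraries a group and 9 in all. The Con group received differentiation medium alone, the Exo group also received exosomes of bone marrow mesenchymal stem cells (BMSCs) that, by the study's methods, carried an empty lentiviral vector, and the pLV-Exo-Wnt5a group received exosomes of BMSCs transduced with a Wnt5a lentiviral vector. The medium, with its serum and growth factor, was common to the 3 groups, and the NSCs themselves carried no transgene. The labels do not say whether the libraries of a group came from separate cultures, so p-values measure only the spread between these libraries, which may be technical. The cells are rat, but the genes carry the symbols and NCBI numbers of mouse.

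In canonical NF-κB signalling, receptors recruit TRAF adaptors and the ubiquitin ligases cIAP1 and cIAP2, and the ubiquitin chains they build activate the IKK complex, which phosphorylates IκB and releases NF-κB dimers into the nucleus. In the noncanonical branch, NF-κB-inducing kinase (NIK) accumulates when TRAF2, TRAF3 and the cIAPs no longer mark it for degradation, and it then activates IKKα. In cells of the nervous system the pathway is known for inflammatory responses of glia and for roles in progenitor differentiation.

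Total counts lay between 32765138 and 40427647 per library, so a count of 0 in a library allowed a level of up to 3 counts, or 0.0742 to 0.0916 CPM (counting error only). CPM is the count scaled to a fixed library size, here with TMM factors for composition. Con replicate 1 stood apart: its mean distance to the other libraries was 76.6 against 59.7 to 66.0 for the others, and of 14811 genes tested in every comparison it held the lowest value for 30.0% and the highest for 26.7%. Results against Con that this library moved are therefore also given without it. Of the defining marker genes, astrocyte, neuron, neural stem cell and oligodendrocyte lists were all expressed, with summed levels of 4877 to 6908, 2605 to 3344, 2718 to 4047 and 1934 to 2380 CPM. The 4 listed spinal cord Hox genes present in the table had at most 3 counts in every library, whereas the 8 forebrain genes summed to between 634 and 795 CPM, which does not match the labelled tissue. The microglia list of 10 genes had a summed level of 11.5 to 13.1 CPM in the Con libraries, 6.49 to 7.45 CPM in the Exo libraries and 10.1 to 14.2 CPM in the pLV-Exo-Wnt5a libraries, and its defining genes P2ry12, Ptprc and Tmem119 were at 0 in 1 or more libraries. In bulk RNA, fewer cells of a type and less RNA per cell cannot be told apart.

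Of the 10 genes, 9 passed the filter on low counts in each comparison, and Birc3 did not. The IKK subunit genes Ikbkg and Ikbkb, with Traf2 and Traf3, were nearly constant in all 9 libraries. Chuk, also an IKK subunit gene, varied widely among the Con libraries, as did Birc2 and Xiap. Map3k14 was highest in the pLV-Exo-Wnt5a libraries and Card10 was lower in every Exo library than in every Con library, but against Con neither difference passed adjustment over all genes with edgeR or with DESeq2. Over the 9 libraries, the highest value was between 1.18 and 1.30 times the lowest for Ikbkb, Ikbkg, Traf3 and Traf2, against 2.07 for Map3k14, 2.95 for Card10, 2.97 for Birc2, 3.25 for Chuk and 3.43 for Xiap.

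**Figure D1:**
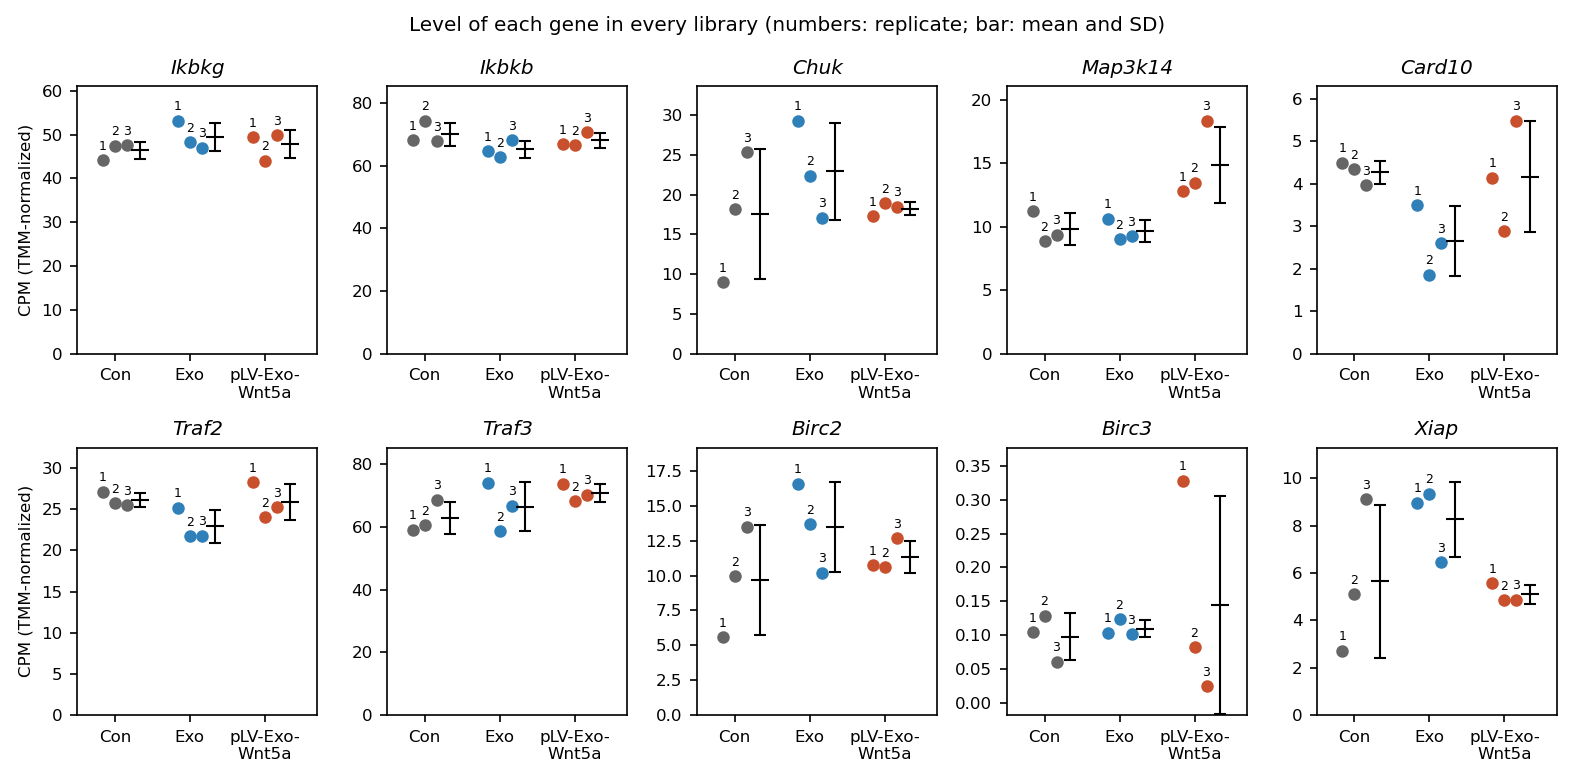
Level of each of the 10 genes in every library, as TMM-normalized CPM on the vertical axis from 0 (just below 0 for Birc3), by group on the horizontal axis. Points are libraries numbered by replicate and bars are the group mean and SD (n = 3). Map3k14 sits at 12.8 CPM or above in the pLV-Exo-Wnt5a libraries and at 11.2 CPM or below in the others, while Chuk, Birc2 and Xiap are lowest in Con replicate 1.

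Ikbkg (NCBI gene number 16151) encodes NEMO, the regulatory subunit through which ubiquitin chains reach the kinases. It was measured at 44.1, 47.5 and 47.6 CPM in Con replicates 1, 2 and 3, at 53.1, 48.3 and 47.0 CPM in the Exo libraries, and at 49.4, 44.1 and 49.8 CPM in the pLV-Exo-Wnt5a libraries. The 3 groups overlapped, and only 9.89% of 15458 expressed genes had a lower SD of log2 CPM across the 9 libraries. Its log2FC was 0.083 between Exo and Con (95% interval -0.11 to 0.28, Q = 0.648, the Benjamini-Hochberg adjusted p of edgeR's quasi-likelihood test) and 0.034 between pLV-Exo-Wnt5a and Con (95% interval -0.18 to 0.25, Q = 0.936 by edgeR). Leaving out Con replicate 1 gave 0.048 and 0.0063. The intervals exclude a change of Ikbkg as large as a log2FC of 0.58.

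Ikbkb (16150) encodes IKKβ, the kinase that acts on IκB in the canonical branch. Con replicates 1 to 3 held 68.2, 74.4 and 67.8 CPM, the Exo libraries 64.6, 62.8 and 68.3 CPM, and the pLV-Exo-Wnt5a libraries 66.9, 66.6 and 70.8 CPM. No group was separate from another, and 5.08% of expressed genes had a lower SD across libraries, the lowest share among the 9 genes. Its log2FC was -0.11 for Exo against Con (95% interval -0.30 to 0.072) and -0.049 for pLV-Exo-Wnt5a against Con (95% interval -0.24 to 0.14), with Q = 0.505 and 0.887 from edgeR's quasi-likelihood test, and these became -0.13 and -0.062 without Con replicate 1.

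Chuk (12675) encodes IKKα, the kinase shared by the complex and the noncanonical branch. Its Con libraries held 9.0, 18.2 and 25.3 CPM, a coefficient of variation of 46.8%. The Exo libraries held 29.3, 22.4 and 17.1 CPM, and the pLV-Exo-Wnt5a libraries held 17.3, 18.9 and 18.5 CPM, a coefficient of variation of 4.61%. The pLV-Exo-Wnt5a libraries thus lay in a narrow band within the range of both other groups. The log2FC was 0.38 for Exo against Con (95% interval -0.31 to 1.07, Q = 0.538 by edgeR) and 0.060 for pLV-Exo-Wnt5a against Con (95% interval -0.52 to 0.64, Q = 0.962 by edgeR). Without Con replicate 1 these became 0.068 and -0.25, and without Con replicate 3 they became 0.74 and 0.41. The ratio of Chuk to Ikbkb counts, which does not depend on library size, ran from 0.132 in Con replicate 1 to 0.453 in Exo replicate 1, and was 0.259, 0.285 and 0.261 in the pLV-Exo-Wnt5a libraries.

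Map3k14 (53859) encodes NIK, the kinase upstream of IKKα. It was measured at 11.2, 8.86 and 9.37 CPM in the Con libraries (9.82 ± 1.25, SD, n = 3), at 10.6, 9.01 and 9.24 CPM in the Exo libraries (9.62 ± 0.870, SD, n = 3), and at 12.8, 13.5 and 18.3 CPM in the pLV-Exo-Wnt5a libraries (14.9 ± 3.03, SD, n = 3). Every pLV-Exo-Wnt5a library was above every other library, and replicate 3 was the highest. The log2FC of pLV-Exo-Wnt5a against Con was 0.59 ± 0.18 (SE), a 1.50-fold higher level (95% interval of the log2FC 0.21 to 0.97). EdgeR's quasi-likelihood test gave an unadjusted p of 0.00585 and Q = 0.435, so the difference did not pass adjustment over the 15089 genes tested. The unadjusted p stayed under 0.05 with each of the 6 libraries left out in turn, with a log2FC from 0.41 without pLV-Exo-Wnt5a replicate 3 to 0.71 without Con replicate 1. This comparison uses the same pLV-Exo-Wnt5a libraries that chose the gene, so its p is not independent of the choice. Between Exo and Con the log2FC of Map3k14 was -0.040 (95% interval -0.38 to 0.30, Q = 0.907 by edgeR), and 0.070 without Con replicate 1. Between pLV-Exo-Wnt5a and Exo, the values that chose it, the log2FC was 0.64 ± 0.15 (SE), and it was 0.45, under the limit, when pLV-Exo-Wnt5a replicate 3 was left out.

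The genes whose profile over the 9 libraries was most like that of Map3k14, by the root-mean-square difference of centred log2 CPM, were Ier3 at 0.0912, Foxj1 at 0.108 and Tcf19 at 0.124, where Map3k14 itself had an SD of 0.327. Ier3 is an immediate early response gene and Foxj1 a transcription factor of ciliated and ependymal cells. The closeness is a description over 9 libraries that share 3 groups, among 14811 genes compared.

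Card10 (105844) encodes CARMA3, the scaffold that joins BCL10 and MALT1 to pass signals from G protein-coupled and growth factor receptors to IKK. The Con libraries held 4.49, 4.34 and 3.96 CPM (4.26 ± 0.275, SD, n = 3), the Exo libraries 3.49, 1.86 and 2.60 CPM (2.65 ± 0.817, SD, n = 3), and the pLV-Exo-Wnt5a libraries 4.14, 2.87 and 5.47 CPM (4.16 ± 1.30, SD, n = 3). The Exo libraries were all below the Con libraries, whereas pLV-Exo-Wnt5a replicate 2 lay within the range of the Exo group. For Exo against Con the log2FC was -0.70 ± 0.24 (SE; 95% interval -1.24 to -0.16), and edgeR's quasi-likelihood test gave an unadjusted p of 0.0165 and Q = 0.277. Without Con replicate 1 it was -0.66 with an unadjusted p of 0.0312 by edgeR, but without Exo replicate 2 or 3 the unadjusted p rose to 0.0659 and 0.0510. For pLV-Exo-Wnt5a against Con the log2FC was -0.041 (95% interval -0.57 to 0.49, Q = 0.971 by edgeR), and 0.0074 without Con replicate 1. The Exo libraries of Exo against Con also entered the choice of Card10, so the p of that comparison is not independent of the choice. The values that chose Card10, pLV-Exo-Wnt5a against Exo, gave a log2FC of 0.67 ± 0.28 (SE). That log2FC was 0.41 when pLV-Exo-Wnt5a replicate 3 was left out and 0.46 when Exo replicate 2 was, both under the limit of 0.58 that chose the gene, and 0.91 without Exo replicate 1. The summed level of the microglia list was also lowest in the Exo libraries. Of its 7 tested genes, 3 had an unadjusted p under 0.05 by edgeR as lower in Exo against Con, while Trem2 and Aif1 had log2FC values of 0.27 and -0.017. Microglia markers were not alone in this. Of 8 neural stem cell markers, 7 were lower and 1 higher in Exo against Con, and 3 passed as lower by the same rule. The part of either cell type in the Card10 values was not tested.

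The profiles nearest to Card10 were Gm14230 at a root-mean-square difference of 0.117, Kif2c at 0.167 and Tk1 at 0.171, against an SD of 0.444 for Card10. Kif2c is a mitotic kinesin and Tk1 a thymidine kinase of the S phase.

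Traf2 (22030) and Traf3 (22031) encode the adaptors that bring the cIAPs to receptors and to NIK. Traf2 held 27.1, 25.7 and 25.5 CPM in the Con libraries, 25.2, 21.8 and 21.8 CPM in the Exo libraries, and 28.3, 24.1 and 25.3 CPM in the pLV-Exo-Wnt5a libraries. All Exo libraries were below all Con libraries, by a margin of less than 1 CPM at the nearest pair. The log2FC of Traf2 was -0.20 for Exo against Con (95% interval -0.44 to 0.041, Q = 0.388 by edgeR), -0.17 without Con replicate 1, and -0.021 for pLV-Exo-Wnt5a against Con (95% interval -0.27 to 0.23, Q = 0.969 by edgeR), or 0.015 without Con replicate 1.

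Traf3 held 59.1, 60.6 and 68.6 CPM in the Con libraries, 74.1, 58.6 and 66.7 CPM in the Exo libraries, and 73.8, 68.3 and 70.3 CPM in the pLV-Exo-Wnt5a libraries. The groups overlapped in every pair. Its log2FC was 0.073 for Exo against Con (95% interval -0.15 to 0.30, Q = 0.728 by edgeR) and 0.17 for pLV-Exo-Wnt5a against Con (95% interval -0.034 to 0.37, Q = 0.649 by edgeR), or 0.032 and 0.13 without Con replicate 1. The ratio of Map3k14 to Traf3 counts, a kinase to the adaptor that restrains it, was between 0.137 and 0.190 in the Con libraries, between 0.139 and 0.154 in the Exo libraries, and 0.173, 0.197 and 0.261 in the pLV-Exo-Wnt5a libraries. The ratio in pLV-Exo-Wnt5a replicate 1 fell below that of Con replicate 1, so on this measure the pLV-Exo-Wnt5a libraries stood clear of the Exo libraries but not of the Con libraries.

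Birc2 (11797) encodes cIAP1, a ubiquitin ligase that modifies receptor complexes and NIK. The Con libraries held 5.58, 9.94 and 13.5 CPM, the Exo libraries 16.6, 13.7 and 10.2 CPM, and the pLV-Exo-Wnt5a libraries 10.7, 10.6 and 12.7 CPM. As for Chuk, the Con libraries were spread widely and the pLV-Exo-Wnt5a libraries narrowly, and Exo replicates 1 and 2 lay above every Con library. The log2FC was 0.47 for Exo against Con (95% interval -0.15 to 1.10, Q = 0.418 by edgeR) and 0.23 for pLV-Exo-Wnt5a against Con (95% interval -0.32 to 0.77, Q = 0.809 by edgeR). Without Con replicate 1 these became 0.20 and -0.046, and without Con replicate 3 they became 0.78 and 0.53. The ratio of Birc2 to Traf2 counts moved in the same manner, from 0.205 in Con replicate 1 to 0.659 in Exo replicate 1, and lay between 0.380 and 0.501 in the pLV-Exo-Wnt5a libraries.

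Birc3 (11796), which encodes cIAP2, was at the limit of detection. Its counts were 4, 5 and 2 in the Con libraries, 4, 5 and 4 in the Exo libraries, and 13, 3 and 1 in the pLV-Exo-Wnt5a libraries. A difference in Birc3 between groups was not detectable at this depth.

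Xiap (11798) encodes a caspase inhibitor that also links receptor signalling to NF-κB. The Con libraries held 2.72, 5.11 and 9.13 CPM (5.65 ± 3.24, SD, n = 3), the Exo libraries 8.97, 9.35 and 6.47 CPM (8.26 ± 1.57, SD, n = 3), and the pLV-Exo-Wnt5a libraries 5.58, 4.84 and 4.87 CPM (5.09 ± 0.418, SD, n = 3). All pLV-Exo-Wnt5a libraries were below all Exo libraries, and the Con libraries reached from below the former to the level of the latter. The values that chose Xiap, pLV-Exo-Wnt5a against Exo, gave a log2FC of -0.68 ± 0.17 (SE). For Exo against Con the log2FC was 0.55 (95% interval -0.23 to 1.32, Q = 0.447 by edgeR), and for pLV-Exo-Wnt5a against Con it was -0.14 (95% interval -0.87 to 0.58, Q = 0.917 by edgeR). Without Con replicate 1 these were 0.21 and -0.48, and without Con replicate 3 they were 1.06 and 0.37, so the direction against Con turned in the second. The nearest profiles were Nr1d2 at a root-mean-square difference of 0.104, Zfp68 at 0.128 and Cidea at 0.137, against an SD of 0.539 for Xiap. Nr1d2 encodes a nuclear receptor of the circadian clock.

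Chuk, Birc2 and Xiap were all lowest in Con replicate 1, while over the other libraries only Chuk and Birc2 had like profiles and Xiap held the Exo and pLV-Exo-Wnt5a libraries apart. In Con replicate 1 the 3 genes lay 1.05, 1.06 and 1.12 log2 units below the median of the other 8 libraries, and only 4.56%, 4.5% and 3.68% of the 14811 genes lay further below. The same difference was -0.12 for Ikbkg, 0.017 for Ikbkb, 0.17 for Map3k14, 0.27 for Card10, 0.11 for Traf2 and -0.21 for Traf3. Among all genes, Birc2 ranked 12 in closeness to Chuk with a root-mean-square difference of 0.107, and Chuk ranked 23 in closeness to Birc2. Xiap was further from Chuk at 0.224 and from Birc2 at 0.256. Without Con replicate 1 the values were 0.111, 0.237 and 0.267, where Chuk, Birc2 and Xiap had SDs of 0.266, 0.243 and 0.393, so that only the closeness of Chuk and Birc2 was well under their own spread. In closeness to Chuk over those 8 libraries, Birc2 ranked 25 and Xiap 1957, and Xiap ranked 5985 in closeness to Birc2. The points are 9 libraries that share depth and composition, and the part of either in these values was not tested.

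**Figure D2:**
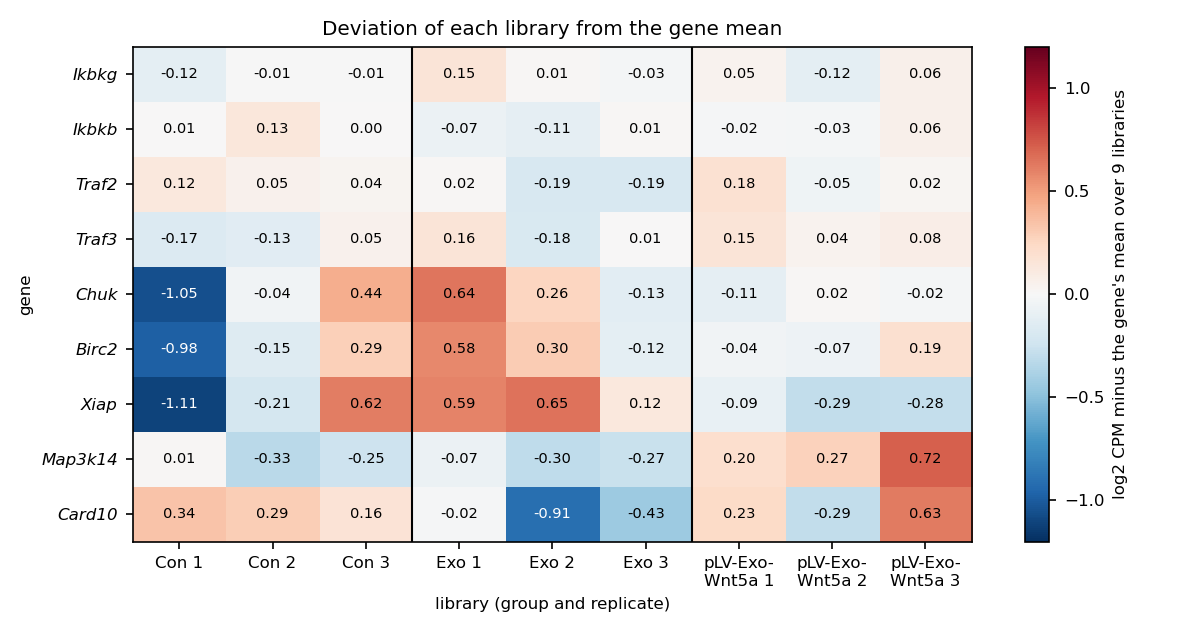
Deviation of each library from the gene's own mean over the 9 libraries, in log2 CPM, with genes as rows, libraries as columns and lines between the groups. Con replicate 1 is the darkest blue for Chuk, Birc2 and Xiap, the rows of Chuk and Birc2 look alike in the other libraries too, and the rows of Ikbkg, Ikbkb, Traf2 and Traf3 are pale throughout.

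Since Chuk and Birc2 varied together, their promoters are shown, as the 250 bases before the RefSeq start site in the rat assembly GRCr8, written 5′ to 3′ on the gene's strand. Both lie on the minus strand, Chuk at chr1:252944274-252944523 and Birc2 at chr8:13271541-13271790. Capitals mark CCAAT boxes (CCAAT or its reverse complement) and GC boxes (GGGCGG or its reverse complement).
Chuk: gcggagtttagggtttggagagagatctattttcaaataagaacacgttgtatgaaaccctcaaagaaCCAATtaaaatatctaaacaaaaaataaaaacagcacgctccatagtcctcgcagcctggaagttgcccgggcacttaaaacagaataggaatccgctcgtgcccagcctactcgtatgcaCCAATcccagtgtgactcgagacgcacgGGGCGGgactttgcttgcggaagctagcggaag
Birc2: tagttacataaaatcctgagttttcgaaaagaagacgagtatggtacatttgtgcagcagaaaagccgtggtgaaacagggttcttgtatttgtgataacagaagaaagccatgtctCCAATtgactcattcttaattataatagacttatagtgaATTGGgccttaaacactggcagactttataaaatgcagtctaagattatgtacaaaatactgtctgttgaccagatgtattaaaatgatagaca
Each holds 2 CCAAT boxes, which 34% of the 33469 rat promoters of the same length hold at least once, and Chuk also holds 1 GC box, which 30.5% hold. Their GC content was 47.6% for Chuk and 34.4% for Birc2. Of the 10 genes, 7 had a promoter in the RefSeq table, and each of these motifs was found in 5 of the 7.

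The NF-κB consensus itself was found, on either strand, in 1 of the 7 promoters and in 3.54% of all promoters. That promoter was Traf3, where the match ends at the base before the start site. The 30 bases at chr6:136027019-136027048, on the plus strand, are shown with the match in capitals, since Traf3 encodes an inhibitor of the noncanonical branch.
Traf3: cgcgcgccctggcggcccgcGGGGATTTCC
The motif TGACG was found in Traf2 alone (18.2% of all promoters) and CCGGAAG in Ikbkg alone (7.27% of all promoters). A match is a description of the letters and not evidence of binding.

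In Exo against Con, which asked what exosomes without added Wnt5a changed, 5 of the 9 genes were higher and 4 lower, with a median log2FC of 0.073 against 0.0020 over all 15070 genes tested. Leaving out Con replicate 1 made this 6 higher and 3 lower with a median of 0.048. By edgeR's quasi-likelihood test 0 of the 9 genes had Q under 0.05, as did 0.00664% of all genes. Card10 was the 1 gene with an unadjusted p under 0.05, where the background was 14.9%, and also with an absolute log2FC above 0.58, where it was 4.47%. Card10 and Traf2 had groups that did not overlap, 2 of 9 against a background of 23.3%. These shares are near the background and are no result about the genes. Card10 was chosen with the same Exo libraries, so its calls here are not independent of the choice. DESeq2, run without the filter on low counts, gave the same count of 1 gene at an unadjusted p under 0.05 (9.81% of 23057 genes with counts) and 0 at Q under 0.05, with Q = 0.159 for Card10. Without Con replicate 3, Chuk, Birc2 and Xiap joined Card10 at an unadjusted p under 0.05 by edgeR, with Q = 0.0585 for Xiap. At that setting the background rose too, to 23.4% of all genes at an unadjusted p under 0.05 and 2.4% at Q under 0.05.

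In pLV-Exo-Wnt5a against Con, 5 genes were higher and 4 lower, with a median log2FC of 0.034 against 0.0041 over all genes (0.0063 without Con replicate 1). With edgeR 0 of the 9 genes had Q under 0.05 (0.0862% of all genes), and Map3k14 alone had an unadjusted p under 0.05 (8.35% of all genes), an absolute log2FC above 0.58 with it (2.16%), and groups that did not overlap (17.1%). The log2FC of Map3k14 lay below 0.58 without Con replicate 2 or 3 or pLV-Exo-Wnt5a replicate 3 (0.52, 0.55 and 0.41). DESeq2 also called Map3k14 alone at an unadjusted p under 0.05 (5.59% of 23093 genes with counts), with Q = 0.156. Map3k14 was chosen with the same pLV-Exo-Wnt5a libraries, so its calls here are not independent of the choice. Both comparisons share the 3 Con libraries.

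In pLV-Exo-Wnt5a against Exo, which asked what Wnt5a added and which chose 3 of the genes, 5 genes were higher and 4 lower, with a median log2FC of 0.075 against 0.0049 over all 15132 genes. The log2FC was -0.037 ± 0.078 (SE) for Ikbkg, 0.075 ± 0.065 for Ikbkb, 0.19 ± 0.096 for Traf2, 0.10 ± 0.082 for Traf3 and -0.24 ± 0.17 for Birc2, against -0.32 ± 0.16 for Chuk. With each library left out, Chuk ran from -0.49 (without Exo replicate 3) to -0.11 (without Exo replicate 1), Birc2 from -0.40 to -0.070 without the same libraries, Traf3 from 0.019 (without Exo replicate 2) to 0.18 (without Exo replicate 1), Traf2 from 0.12 to 0.25, Ikbkb from 0.038 to 0.11 and Ikbkg from -0.077 to 0.018. The gene nearest outside the limit changed with the libraries: it was Traf2 at 0.25 without Exo replicate 1, Card10 at 0.46 without Exo replicate 2, and Map3k14 at 0.45 when pLV-Exo-Wnt5a replicate 3 was left out. By the choice itself, 2 of the genes passed an unadjusted p under 0.05 as higher and 1 as lower, where 12% of all genes passed in either direction, 5.07% as higher, 3.49% with an absolute log2FC above 0.58 and 0.436% at Q under 0.05. Map3k14 and Xiap had groups that did not overlap, where the background was 16.4%.

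**Figure D3:**
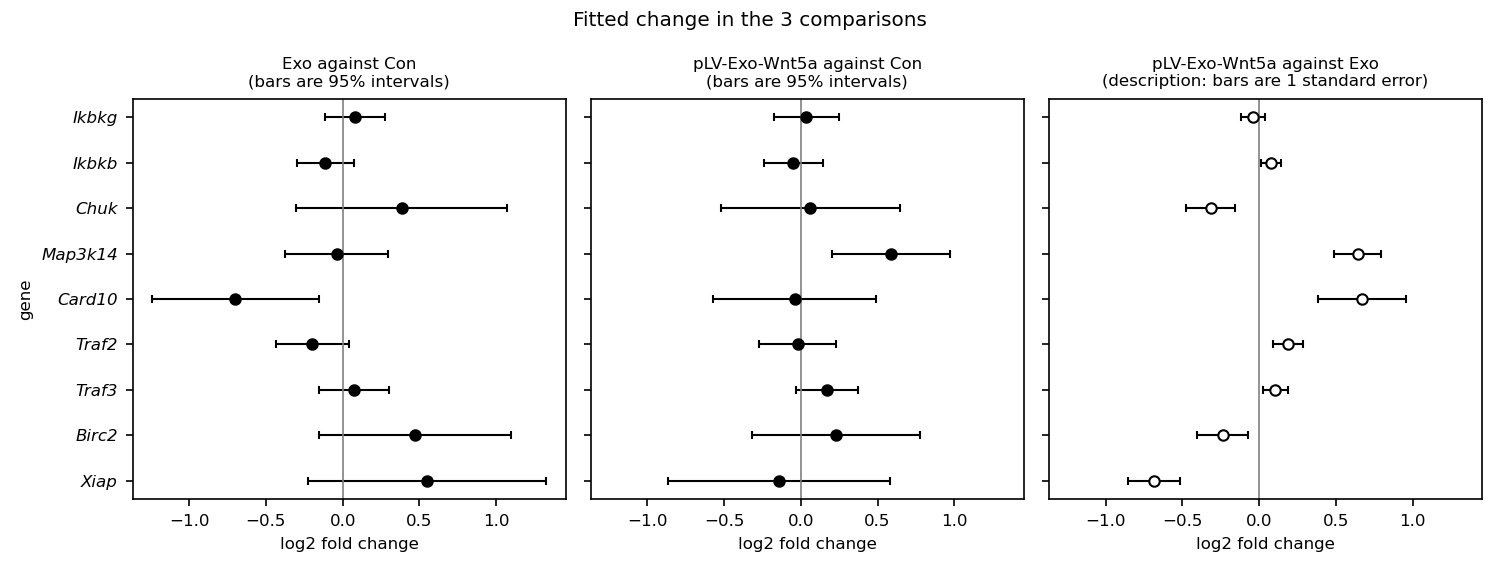
Fitted log2FC of the 9 tested genes in the 3 comparisons. In the left and middle panels bars are 95% intervals, which miss 0 for Card10 in Exo against Con and for Map3k14 in pLV-Exo-Wnt5a against Con; in the right panel, a description, bars are 1 SE.

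**Figure D4:**
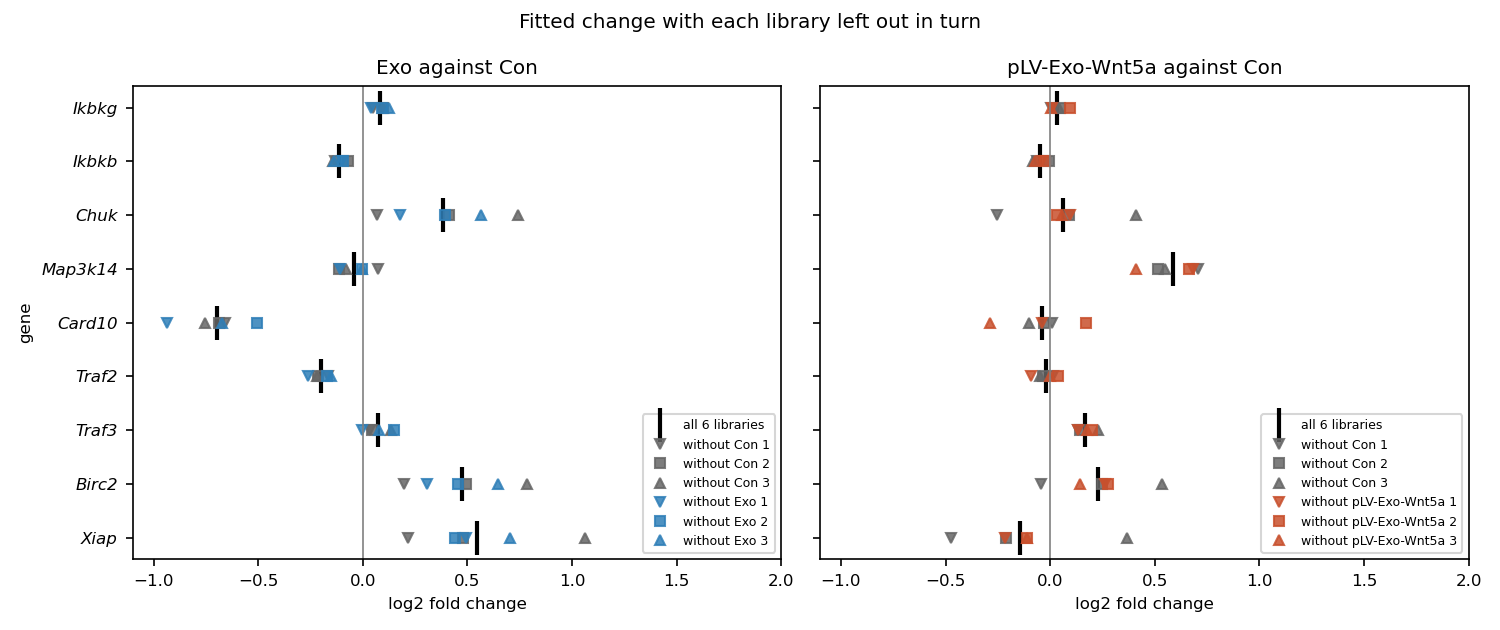
Fitted log2FC of the 9 tested genes in both comparisons with Con, with all 6 libraries (black line) and with each library left out in turn (symbols). Chuk, Birc2 and Xiap shift left without Con replicate 1 and right without Con replicate 3, while Map3k14 stays between 0.41 and 0.71 in pLV-Exo-Wnt5a against Con.

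The rest of the pathway was followed in 6 lists with 80 genes. With edgeR none of the tested list genes had Q under 0.05 in any of the 3 comparisons, and the counts that follow are at an unadjusted p under 0.05. By that rule 8.92% of all genes were higher and 6.01% lower in Exo against Con, 4.2% and 4.15% in pLV-Exo-Wnt5a against Con, and 5.07% and 6.91% in pLV-Exo-Wnt5a against Exo. Most list counts are 0 to 3 genes and are given as a description. Without Con replicate 3 the share in either direction rose to 23.4% in Exo against Con and to 14.4% in pLV-Exo-Wnt5a against Con. DESeq2 put 2 of them at Q under 0.05 in Exo against Con, 0 in pLV-Exo-Wnt5a against Con and 6 in pLV-Exo-Wnt5a against Exo, where its calls made up 0.915%, 0.32% and 1.72% of all genes with counts. In Exo against Con without Con replicate 3, edgeR itself gave Q = 0.0228 for Hsp90aa1 and Q = 0.0347 for both Prkce and Rnf11 (2.4% of all genes called at that setting), and in pLV-Exo-Wnt5a against Exo without pLV-Exo-Wnt5a replicate 2 it gave Q = 0.0452 for Tnfrsf1a.

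Among IKK partners and IKK-related kinases, 13 genes were tested, and 1 passed as higher in Exo against Con, 0 in pLV-Exo-Wnt5a against Con and 2 as lower in pLV-Exo-Wnt5a against Exo. These counts turned on single libraries. In Exo against Con, 6 passed as higher without Con replicate 3 (median log2FC 0.39), 2 without Exo replicate 3 and 1 without each other library. In pLV-Exo-Wnt5a against Con, 3 passed as higher without Con replicate 3, 1 when either pLV-Exo-Wnt5a replicate 2 or Con replicate 2 was left out, and 1 as lower without Con replicate 1. The count in pLV-Exo-Wnt5a against Exo ran from 1 lower without pLV-Exo-Wnt5a replicate 1 to 3 lower without Exo replicate 3, where 1 was higher, or without pLV-Exo-Wnt5a replicate 3. Hsp90aa1, a chaperone that stabilizes the IKK kinases, held 15.4, 20.1 and 25.6 CPM in the Con libraries, 38.2, 38.4 and 30.5 CPM in the Exo libraries and 22.6, 23.7 and 28.3 CPM in the pLV-Exo-Wnt5a libraries. The Exo libraries were above all others. The log2FC of Hsp90aa1 was 0.80 ± 0.17 (SE) in Exo against Con (Q = 0.265 by edgeR, Q = 0.00300 by DESeq2), 0.64 without Con replicate 1, and -0.51 ± 0.12 (SE) in pLV-Exo-Wnt5a against Exo (Q = 0.102 by edgeR, Q = 0.00468 by DESeq2). Hsp90ab1, another HSP90 gene of the list, did not share this rise. It held 2308, 2297 and 2255 CPM in the Con libraries and 2113, 2234 and 2229 CPM in the Exo libraries. In the pLV-Exo-Wnt5a libraries Hsp90ab1 held 2200, 2279 and 2265 CPM. The median of this list in Exo against Con was 0.15 and turned to -0.050 without Con replicate 1.

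Among receptors and receptor-proximal adaptors, 3 of 18 tested genes passed as lower in Exo against Con (2 without Con replicate 1), 1 of 19 as lower in pLV-Exo-Wnt5a against Con, and 4 of 18 as higher in pLV-Exo-Wnt5a against Exo. The first count was 1 without Con replicate 2 or Exo replicate 2, 2 without Exo replicate 1 or 3, and 4 without Con replicate 3. In pLV-Exo-Wnt5a against Con it was 3 higher and 1 lower without Con replicate 1, and 1 of each when either pLV-Exo-Wnt5a replicate 2 or Con replicate 3 was left out. In pLV-Exo-Wnt5a against Exo the higher genes numbered 2 without Exo replicate 3 or pLV-Exo-Wnt5a replicate 1, 3 without Exo replicate 2 or pLV-Exo-Wnt5a replicate 3 (where 1 was lower), and 5 without pLV-Exo-Wnt5a replicate 2. Traf4, a TRAF family adaptor, had the smallest p against Con, at a log2FC of -0.24 for Exo (Q = 0.277 by edgeR) and -0.26 for pLV-Exo-Wnt5a (Q = 0.505 by edgeR), and -0.17 and -0.19 without Con replicate 1. Without Exo replicate 2 the first had an unadjusted p of 0.0617 by edgeR. Tnfrsf1a, the main TNF receptor, held 55.4, 52.2 and 53.7 CPM in the Exo libraries and 70.5, 60.3 and 70.1 CPM in the pLV-Exo-Wnt5a libraries. Its log2FC was 0.33 ± 0.076 (SE; Q = 0.0983 by edgeR, Q = 0.0127 by DESeq2). In the Con libraries Tnfrsf1a was at 69.7, 55.1 and 53.9 CPM, so Con replicate 1 alone reached the pLV-Exo-Wnt5a level.

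The CARD-BCL10-MALT1 list, the complex around Card10 with the protein kinases C that feed it, had 6 tested genes. In Exo against Con 5 were higher and 1 lower, 2 passed, and the median log2FC was 0.46, which fell to 0.20 without Con replicate 1 with 2 still passing. That count was 1 without Exo replicate 1 or 2 and 3 without Exo replicate 3. Prkce, a protein kinase C isoform, had the smallest p, with a log2FC of 0.54 ± 0.16 (SE; Q = 0.265 by edgeR), and 0.35 without Con replicate 1. It also had the smallest p in pLV-Exo-Wnt5a against Con, at 0.40 ± 0.15 (SE; Q = 0.538 by edgeR), and 0.22 without Con replicate 1, with an unadjusted p of 0.0704 by edgeR without pLV-Exo-Wnt5a replicate 2. Card10 itself went the other way from this list in Exo against Con. In pLV-Exo-Wnt5a against Exo 1 passed as lower, Prkca, at a log2FC of -0.19 (Q = 0.365 by edgeR), which had an unadjusted p of 0.0582 to 0.127 by edgeR without Exo replicate 1 or 2 or pLV-Exo-Wnt5a replicate 1 or 2, where 0 passed, while 2 passed as lower without Exo replicate 3.

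Among 14 ubiquitin writers and erasers, 1 passed as higher and 1 as lower in Exo against Con, 1 as higher in pLV-Exo-Wnt5a against Con, and 1 as higher and 2 as lower in pLV-Exo-Wnt5a against Exo. Without Con replicate 3 the first was 3 higher and 2 lower and the second 2 higher, without Con replicate 2 or Exo replicate 1 or 2 the first had 0 lower, and in the last the count ran to 2 higher and 0 lower without Exo replicate 1 and to 1 of each without Exo replicate 2 or any pLV-Exo-Wnt5a library. Rnf11, a partner of the A20 editing complex, averaged 173 ± 46.7 CPM in the Exo and 106 ± 23.6 CPM in the Con libraries (SD, n = 3 each). The log2FC of Rnf11 was 0.70 ± 0.19 (SE; Q = 0.265 by edgeR, Q = 0.0233 by DESeq2), and 0.57 without Con replicate 1. It was also the gene that passed in pLV-Exo-Wnt5a against Con, at 0.46. In that comparison 0 genes of this list passed without Con replicate 1 or 2 or pLV-Exo-Wnt5a replicate 1, and Rnf11 was at 0.16 without the last. The Exo and Con groups overlapped for Rnf11, because Con replicate 3 held 130.8 CPM and Exo replicate 2 held 130.4 CPM. Spata2, which brings the deubiquitinase Cyld to receptor complexes, had the smallest p in pLV-Exo-Wnt5a against Exo, at a log2FC of 0.21 ± 0.063 (SE; Q = 0.193 by edgeR).

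Among the other IAP family genes and their antagonists, 1 of 8 tested genes passed as higher in Exo against Con, 3 of 10 as higher in pLV-Exo-Wnt5a against Con, and 1 as higher and 1 as lower of 10 in pLV-Exo-Wnt5a against Exo. The count in pLV-Exo-Wnt5a against Con was 0 when pLV-Exo-Wnt5a replicate 3 was left out, 1 without replicate 1 or 2 of that group, and 2 without Con replicate 2, and that in Exo against Con was 0 without Exo replicate 1 or 2 and 2 without Con replicate 3. Casp8, the initiator caspase of death receptors, was near the limit of detection, at 0.259, 0.437 and 0.213 CPM in the Con libraries, 0.310, 0.247 and 0.0758 CPM in the Exo libraries and 0.656, 0.574 and 1.6 CPM in the pLV-Exo-Wnt5a libraries. The pLV-Exo-Wnt5a libraries were above all others. The log2FC of Casp8 was 1.61 ± 0.54 (SE) against Con (1.52 without Con replicate 1, Q = 0.506 by edgeR) and 2.17 ± 0.60 (SE) against Exo (Q = 0.170 by edgeR, Q = 0.0435 by DESeq2), and the former fell to 1.00 without pLV-Exo-Wnt5a replicate 3, with an unadjusted p of 0.106 by edgeR. Against Exo it fell to 1.54 without pLV-Exo-Wnt5a replicate 3 (Q = 0.38 by edgeR).

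Downstream of IKK, among 11 NF-κB subunits and inhibitors, 2 passed as lower in Exo against Con (1 without Con replicate 1), and 2 as higher with 1 as lower in pLV-Exo-Wnt5a against Con (3 and 0 without Con replicate 1). The first was also 1 without Con replicate 2 or Exo replicate 1 or 2 and 3 without Con replicate 3, and the lower gene of the second did not pass with any of the pLV-Exo-Wnt5a libraries left out. In pLV-Exo-Wnt5a against Exo 9 were higher and 2 lower, 7 passed as higher (5.07% of all genes), and the median log2FC was 0.37 against 0.0049 over all genes. Without pLV-Exo-Wnt5a replicate 3, 4 passed as higher and 1 as lower with a median of 0.24. The counts without each other library were 5 to 7 as higher and 0 as lower. Nfkb2, the precursor that the noncanonical branch processes, was at 12.9 CPM in each of the Exo libraries and at 19.1, 18.4 and 15.3 CPM in the Con libraries, a log2FC of -0.45 ± 0.13 (SE; Q = 0.265 by edgeR), and -0.39 without Con replicate 1. Bcl3, an IκB family coactivator, held 0.594, 0.346 and 0.505 CPM in the Exo libraries and 1.82, 1.45 and 1.84 CPM in the pLV-Exo-Wnt5a libraries, a log2FC of 1.83 ± 0.34 (SE; Q = 0.0512 by edgeR, Q = 0.000712 by DESeq2). Against the 0.804, 0.565 and 0.243 CPM of the Con libraries its log2FC was 1.63 ± 0.42 (SE; Q = 0.354 by edgeR), 2.04 without Con replicate 1, and no pLV-Exo-Wnt5a library of Bcl3 overlapped either group.

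**Figure D5:**
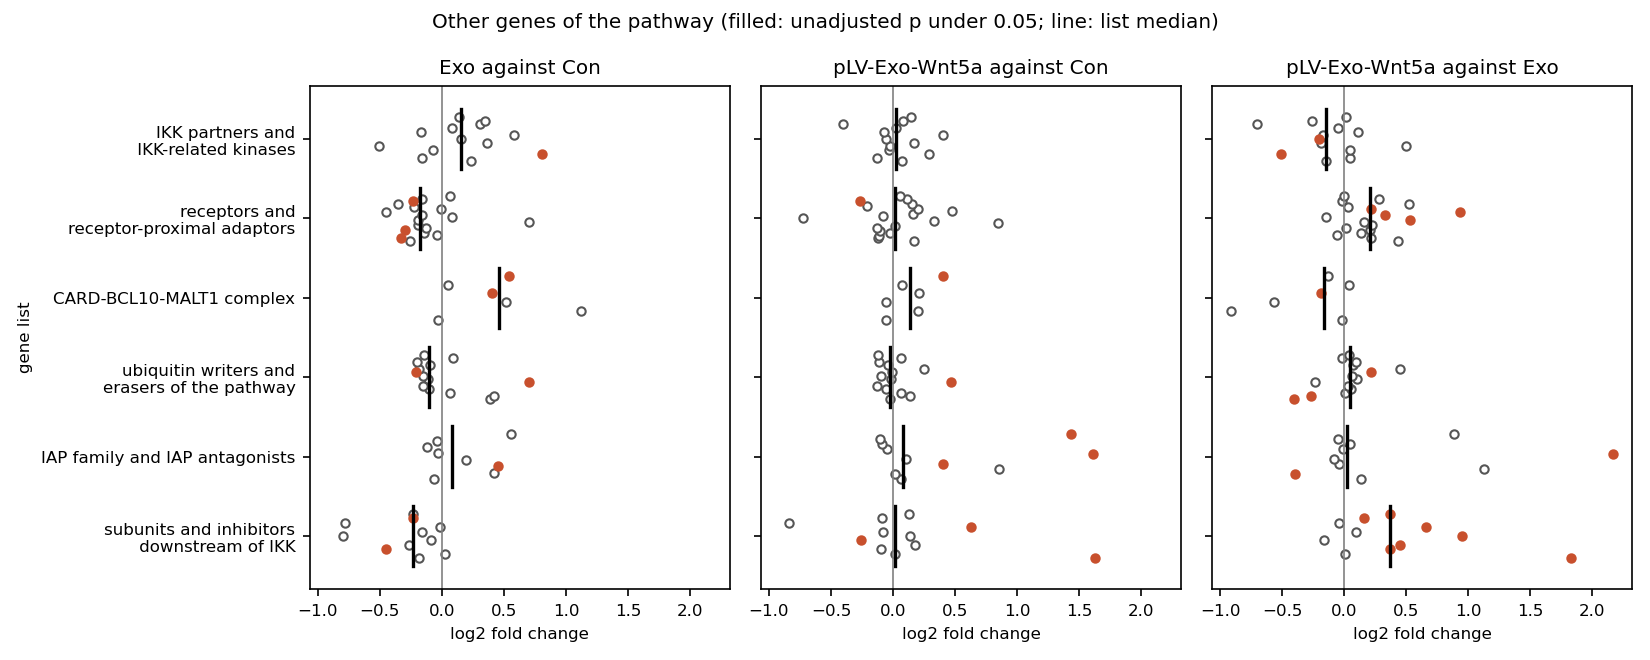
Log2FC of each tested gene of the 6 pathway lists in the 3 comparisons, with filled points for an unadjusted p under 0.05 and a line at the list median. The list downstream of IKK has a median of 0.37 and 7 filled points in pLV-Exo-Wnt5a against Exo, and a median of -0.23 with 2 filled points in Exo against Con (-0.11 and 1 without Con replicate 1).

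Marker genes of other cell types moved in the same comparisons. In Exo against Con, 6 of 8 neuron markers passed as higher at an unadjusted p under 0.05 by edgeR (5 without Con replicate 1), where 8.92% of all genes did. The neuron count was 3 without Exo replicate 2 and 4 without Exo replicate 3. As lower, 3 of 7 microglia markers passed, also with each library left out, and 3 of 8 neural stem cell markers, 2 to 4 with each left out, where 6.01% of all genes did. In the same comparison 2 of 7 oligodendrocyte lineage markers passed as lower, 3 of 8 forebrain genes as higher, and 2 of 8 astrocyte markers as higher with 1 as lower (1 to 2, 3 to 4, and 1 to 4 with 0 to 1, with each library left out). In pLV-Exo-Wnt5a against Con, the comparison of the Map3k14 test, 3 of 8 neuron markers and 3 of 8 forebrain genes passed as higher (4.2% of all genes), and 2 of 7 oligodendrocyte lineage markers as lower (4.15%). These were 2 to 4, 0 to 3 and 1 to 3 with each library left out, and 2 neuron markers passed as lower without Con replicate 1. The microglia, astrocyte, neural stem cell and fibroblast lists had 1 gene each in that comparison, and the endothelial list 0. In pLV-Exo-Wnt5a against Exo, 3 of 7 microglia markers and 2 of 8 neural stem cell markers passed as higher, 3 of 8 neuron markers as lower, and 2 astrocyte markers as higher with 3 as lower, of 8. With each library left out these were 2 to 3 for microglia, 2 for neural stem cells, 2 to 3 for neurons, and 1 to 2 higher with 2 to 4 lower for astrocytes. Also in pLV-Exo-Wnt5a against Exo, 2 of 6 fibroblast markers and 1 of 8 forebrain genes passed as lower. Of 7 oligodendrocyte lineage markers, 1 passed as higher and 1 as lower. Over all genes 5.07% passed as higher and 6.91% as lower. Dcx, a microtubule protein of young neurons, had a log2FC of -0.60 ± 0.081 (SE; Q = 0.0113 by edgeR), and Vim, a filament of progenitors and glia, 0.62 ± 0.11 (SE; Q = 0.0389 by edgeR). Gfap, the astrocyte filament gene, averaged 2234 CPM in the Exo libraries and 4026 CPM in the pLV-Exo-Wnt5a libraries (log2FC 0.86 ± 0.053, SE, Q = 3.36e-05 by edgeR). These genes do not stand for their lists. In the same comparison the astrocyte list had 3 genes higher and 5 lower, with a median log2FC of -0.16. The neuron list had 2 higher and 6 lower (median -0.052), and the neural stem cell list 6 higher and 2 lower (median 0.056). The part of these cell types in the values of the IKK genes was not tested.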

How the data were processed

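The files hold whole-number read counts for each gene, deposited by the authors without normalization. The submitters' processing notes name Bowtie2, RSEM 1.3.1 and DESeq2 1.4.5, whereas the paper's text names HISAT2; the genome build and annotation are not given in the sources used here. If RSEM was used, the counts are rounded estimates that divide reads shared between related genes such as Birc2 and Birc3. Without gene lengths, levels were not compared between genes. The number of count columns without a sample was 0.

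Genes kept by filterByExpr were scaled with TMM, and edgeR 4.0.16 (R 4.3.3, quasi-likelihood F-test) compared the 6 libraries of each pair of groups, with Benjamini-Hochberg adjustment over all genes tested (Q). CPM used TMM factors over all 9 libraries, and log2 CPM a prior count of 2. Alternatives were DESeq2 1.42.0, RLE normalization, no filter or a minimum of 10 counts per library, a fit on all 9 libraries, a replicate block and leaving out each library. Leaving libraries out of the pathway and marker lists and of the Chuk, Birc2 and Xiap profiles was added after seeing the data. The steps were tested on simulated data.

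The genes and lists were chosen with earlier results of these data known. Named are all 10 genes, the list gene with the smallest unadjusted p per list and comparison, and the 3 profiles nearest to Map3k14, Card10 and Xiap. The result of 1 list gene is not reported here. Gfap, Dcx, Vim and other named marker genes, taken from the marker lists, were named after their values were seen, as was Hsp90ab1 of the pathway lists. Promoters came from RefSeq (GRCr8), where Ikbkb, Birc3 and Xiap were not found.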

Additional observations from a re-analysis of the deposited data

How the results depend on the processing

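Of 324 alternative log2FC values of the 9 tested genes, 313 kept their direction and 11 turned: 2 in Exo against Con, 7 in pLV-Exo-Wnt5a against Con, and 2 in pLV-Exo-Wnt5a against Exo (Ikbkg, from -0.037 to 0.0094 when Exo replicate 1 was left out and to 0.018 when pLV-Exo-Wnt5a replicate 2 was). No gene of the 9 reached Q under 0.05 with edgeR or DESeq2 under any alternative run in the comparisons with Con. The count at an unadjusted p under 0.05 in Exo against Con was 1, and 3 with no filter on low counts (Card10, Birc2 and Xiap), where 13.4% of all genes passed. With each library left out it ran from 0 (without Exo replicate 2 or 3) to 4 (without Con replicate 3, where 23.4% of all genes passed). In pLV-Exo-Wnt5a against Con it ran from 1 to 2 (without Con replicate 3, Map3k14 and Birc2, with 14.4% of all genes). The count past an absolute log2FC of 0.58 in pLV-Exo-Wnt5a against Exo was 3 and ran from 1 (without pLV-Exo-Wnt5a replicate 3, where Xiap remained) to 3. List genes at Q under 0.05 with edgeR numbered 0 in each comparison. With each library left out they ran from 0 to 3 in Exo against Con (without Con replicate 3: Hsp90aa1, Prkce and Rnf11) and from 0 to 1 in pLV-Exo-Wnt5a against Exo (without pLV-Exo-Wnt5a replicate 2: Tnfrsf1a), and DESeq2 gave 2 and 6.

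With each library left out, the log2FC of Exo against Con ran from -0.11 to 0.070 for Map3k14 and from -0.0031 to 0.15 for Traf3. For pLV-Exo-Wnt5a against Con it ran from -0.25 to 0.41 for Chuk, from -0.29 to 0.17 for Card10, from -0.092 to 0.035 for Traf2, from -0.046 to 0.53 for Birc2 and from -0.48 to 0.37 for Xiap. The cause of these shifts was not tested. Same-numbered libraries did not deviate together (correlations from -0.201 to 0.0634 over 9 pairs, 2 of 9 libraries nearest to their own number). With 3 libraries a group this cannot decide whether the numbers stand for a pairing, and the labels do not say. A replicate block left the counts at 1, 1 and 3, while over all genes the calls at Q under 0.05 were 0, 38 and 116 with it against 1, 13 and 66 without. With no TMM factor or with RLE, all 60 alternative group levels stayed within 1 SD. The printed intervals of Chuk, Birc2 and Xiap against Con all reached from below 0 to above 0, and Birc3 was too low to test.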
